A study of Mus musculus with 425 samples.

Results

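Glucose enters the mouse embryo through facilitative transporters, is phosphorylated by hexokinases, and is carried by the glycolytic enzymes to pyruvate, which lactate dehydrogenase interconverts with lactate. The embryo before implantation is known for relying on pyruvate and lactate in its first cleavages and for taking up and using more glucose as it compacts into a morula and forms a blastocyst. The 10 genes described here, of 23845 in the embryo tables, were chosen by name: the glucose transporters Slc2a1 (GLUT1) and Slc2a3 (GLUT3), the hexokinases Hk1 and Hk2, the liver-type phosphofructokinase Pfkl, the aldolase Aldoa, the phosphoglycerate kinase Pgk1, the pyruvate kinase Pkm, and the lactate dehydrogenase subunits Ldha and Ldhb. All 10 were found in the table of each embryo set.

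The embryos came from FVB/NJ donor eggs and from fathers with a floxed allele of Dgcr8, which encodes the RNA-binding subunit of the Microprocessor complex that cuts miRNA precursors in the nucleus. Fathers called control were Dgcr8+/fl and fathers called cKO were Dgcr8fl/fl, and both carried the same Cre: Stra8-iCre, driven by the promoter of a gene of germ cells entering spermatogenesis and meiosis, or Defb41-iCre, driven by the promoter of a beta-defensin gene of the epididymis. Single embryos at the 4-cell stage or the morula were sequenced in 3 sets. From testicular sperm of the Stra8-iCre line there were 22 control and 22 cKO 4-cell embryos and 27 control and 21 cKO morulae. From cauda sperm, which have passed through the epididymis, of the same line there were 18 and 15 4-cell embryos and 20 and 22 morulae. From cauda sperm of the Defb41-iCre line, embryos of cKO fathers had been microinjected with a control RNA (23 4-cell embryos, 24 morulae) or with miRNA purified from cauda epididymosomes, the vesicles of that duct (21 and 22). The 30 control 4-cell embryos and 26 control morulae of that line carry no injection label, so father genotype and injection cannot be told apart between them and either injected group. The floxed allele and the Cre were carried by the fathers of every group, so no group of unmodified fathers was compared.

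Values are TPM (transcript abundances scaled to gene length and to a fixed total per library, so levels of different genes can be compared) in 313 embryos, 151 at the 4-cell stage and 162 morulae. The columns sum to between 999999 and 1000001, so the depth of each library is unknown, and 5894 to 10921 genes per embryo had a TPM of at least 1. Nothing in the labels ties embryos to fathers or litters, so p-values measure only the spread between embryos. In the Stra8 cauda set, 9 libraries labelled 4-cell (5 control and 4 cKO), all of 1 series by the code in their labels and named the outlying series here, stood apart: the summed TPM of 8 markers of outer cells and trophectoderm was 10266 to 15621, against 87.6 to 215 in the other 4-cell libraries of the set and 221 to 1885 in its morulae. Krt8, a keratin of trophectoderm, was at 4159 TPM or more in each of them, and the summed 9 maternal oocyte markers were at 1.87 to 21.2 TPM, against 100 to 956 in the other 4-cell libraries. These libraries go against their stage label, and the Stra8 cauda results that rest on 4-cell embryos are given with and without them. Pou5f1, a pluripotency gene of the early embryo, had a median of 263 TPM or more in every group. Of 12 cumulus cell markers, 11 had a median under 1 TPM in control embryos of every set and stage. The remaining cumulus marker did not stay under it throughout and is not given here, and the presence of cumulus RNA was not tested. The sperm protamine gene Prm1 had a median of 0 in every group. Ldhc, of the same list of sperm markers, was not at 0 in 4-cell controls and is given below with Ldha and Ldhb. The other markers of that list are not given here.

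Promoter windows of the genes were read from RefSeq's table for GRCm38.p6 (250 bases before to 50 after a gene's start), which held 14 promoters of 9 of the 10 genes. They were searched on both strands for ACGTG, the core of the hypoxia response element bound by HIF factors, which are known regulators of glycolytic genes. ACGTG was found in 8 of the 14 promoters, belonging to 7 genes, against 19.6% of all 32851 promoters in the table. The GC box GGGCGG, searched in the same way, was found in 8 of the 14, against 35.7% of all. The second and the third Aldoa windows overlap by 224 bases and share 1 ACGTG and 3 GGGCGG. Counted once, they leave 7 of 13 windows with each motif. Both motifs contain CpG (C followed by G), and the 14 windows held from 0 to 30 CpG. The shares over all promoters were not matched for CpG content, so the excess cannot be told apart from it. Slc2a1 and Hk2 had medians under 1 TPM in the 4-cell groups outside the outlying series and higher medians in morulae. Ldhb went the other way, and Ldha, the other lactate dehydrogenase gene, passed no stage test in control embryos. The windows of these genes are given below. Each is written from 5′ to 3′ on its gene's strand, and capitals mark ACGTG or its reverse complement CACGT. Slc2a1 lies on the plus strand (chr4:119108495-119108794), Hk2 on the minus strand (chr6:82774405-82774704), the first listed promoter of Ldha on the plus strand (chr7:46845554-46845853) and Ldhb on the minus strand (chr6:142507908-142508207).
Slc2a1: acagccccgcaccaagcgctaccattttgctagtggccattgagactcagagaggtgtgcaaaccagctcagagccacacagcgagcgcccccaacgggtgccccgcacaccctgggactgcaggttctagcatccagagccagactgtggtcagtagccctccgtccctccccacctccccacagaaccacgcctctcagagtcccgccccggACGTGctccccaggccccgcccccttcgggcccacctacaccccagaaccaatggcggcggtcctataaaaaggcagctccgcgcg
Hk2: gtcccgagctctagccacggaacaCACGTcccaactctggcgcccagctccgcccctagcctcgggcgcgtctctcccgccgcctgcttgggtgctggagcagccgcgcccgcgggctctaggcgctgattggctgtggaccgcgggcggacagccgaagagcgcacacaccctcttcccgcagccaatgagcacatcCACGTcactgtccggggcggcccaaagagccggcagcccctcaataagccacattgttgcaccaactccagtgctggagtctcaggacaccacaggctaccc
Ldha: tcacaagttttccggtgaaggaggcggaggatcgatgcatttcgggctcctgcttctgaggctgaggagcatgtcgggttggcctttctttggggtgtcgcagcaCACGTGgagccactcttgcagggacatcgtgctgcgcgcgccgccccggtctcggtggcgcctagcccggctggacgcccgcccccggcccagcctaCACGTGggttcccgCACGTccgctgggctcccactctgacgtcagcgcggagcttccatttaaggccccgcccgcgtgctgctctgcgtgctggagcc
Ldhb: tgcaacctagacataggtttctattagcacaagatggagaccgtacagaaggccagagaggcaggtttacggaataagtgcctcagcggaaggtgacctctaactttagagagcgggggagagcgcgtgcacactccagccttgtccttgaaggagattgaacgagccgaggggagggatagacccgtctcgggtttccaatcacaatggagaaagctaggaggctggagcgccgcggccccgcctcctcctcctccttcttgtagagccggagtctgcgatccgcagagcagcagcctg
ACGTG occurred 1 time in the Slc2a1 window, 2 times in that of Hk2 and 5 times in that of Ldha, where the palindrome CACGTG counts once on each strand. The second Ldha window in the table and the Ldhb window held neither ACGTG nor GGGCGG, while the Slc2a1 window held GGGCGG 2 times and the Hk2 and Ldha windows 3 times each. These matches describe letters only, and no binding was measured.

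Most of the 10 genes were called different between the stages in control embryos of each set by the test given below. With all libraries, the ranges of the stages still overlapped for most of them. Slc2a1, Slc2a3, Hk2 and Pkm rose and Ldhb fell in control embryos of all 3 sets. In control embryos of testis sperm, limma on log2(TPM + 1) called 6 of the 10 genes higher in morulae and 1 lower at a Benjamini-Hochberg adjusted p under 0.05 over all genes tested, where 61% of 11140 genes were called (29.7% higher and 31.2% lower). In Defb41 control embryos 8 were called higher and 1 lower, where 70.6% of 10914 genes were called. In Stra8 cauda control embryos 5 were called higher and 1 lower with all libraries, where 45% of genes were called, and 7 higher and 1 lower without the outlying series, where 62.8% were. Counted in either direction, the shares of the 10 that were called lie near or somewhat above these backgrounds. In Stra8 cauda controls 27.2% of genes were called higher and 17.8% lower (32% and 30.8% without the outlying series), and in Defb41 controls 49.7% and 20.9%. By direction, the shares of the 10 called higher lay above those of all genes, and the shares called lower lay below. The 10 were chosen with earlier results of these data known. The median log2 change of the 10 was 1.19 in the testis sperm set, 0.99 in the Stra8 cauda set with all libraries (1.15 without the outlying series) and 1.95 in the Defb41 set, beside all-gene medians of -0.02, 0.11 (0.03 without that series) and 0.46. In these whole embryos, fewer cells of a type and less RNA per cell cannot be told apart.

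**Figure D1:**
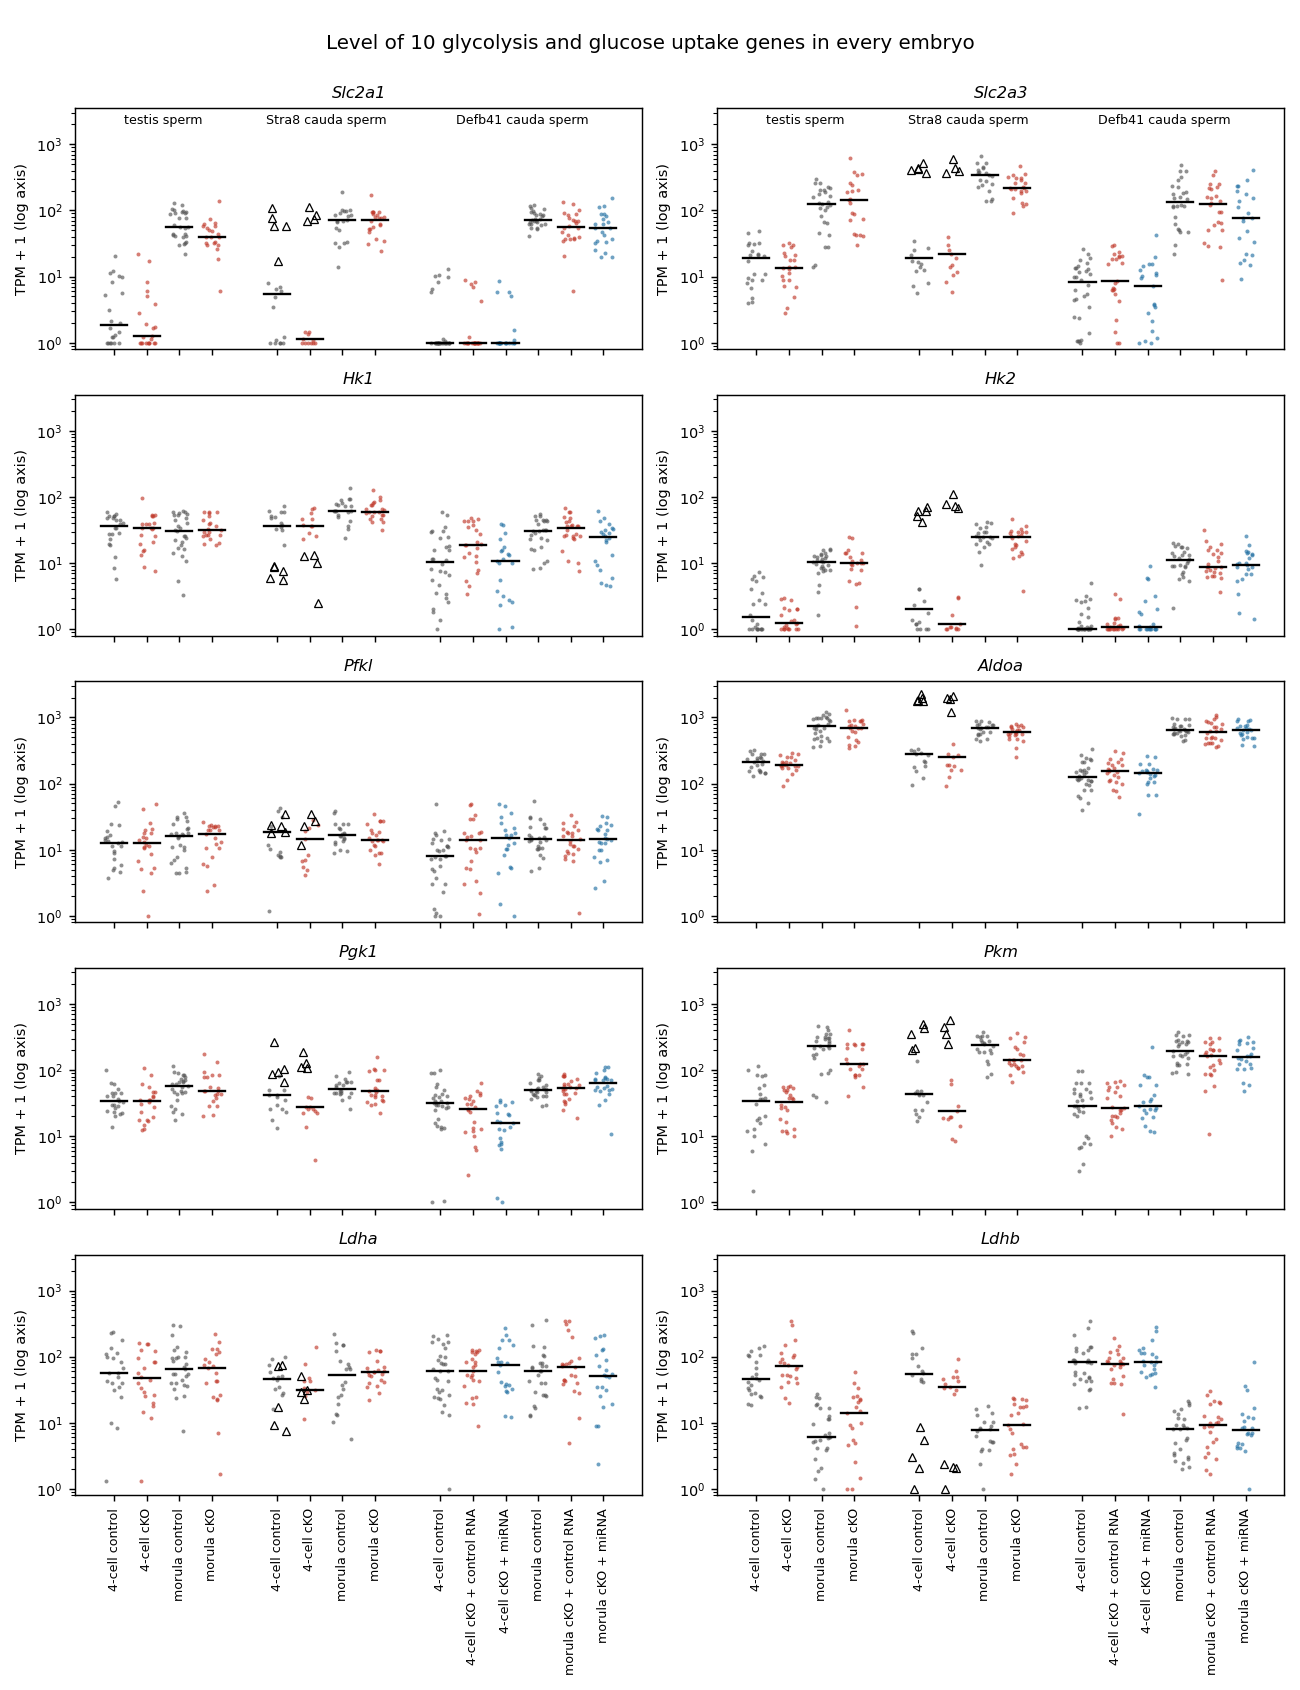
TPM + 1 on a log axis for each of the 10 genes in all 313 embryos, by set, stage and group, each point 1 embryo (grey control, red cKO, blue cKO with miRNA) and each bar the median of all libraries in the group. Open triangles are the 9 libraries of the outlying series. Slc2a1, Slc2a3, Hk2, Aldoa and Pkm lie higher and Ldhb lower in morulae, while the groups within a stage overlap for every gene.

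Slc2a1, the glucose transporter of many cell types, had the largest change of the 10 in each set. In control 4-cell embryos of testis sperm it ranged from 0 through a median of 0.825 to 19.3 TPM, with 6 of 22 embryos listed at 0. In the 27 control morulae it ranged from 21.1 through 54.9 to 130 TPM. Every morula was above every 4-cell embryo. Slc2a1 rose by 4.44 on the log2 scale (SE 0.31, limma adjusted p = 9.3e-18), and it rose in 4 of 4 blocks of consecutive sample-sheet numbers.

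In the Defb41 controls Slc2a1 was listed at 0 in 21 of 30 4-cell embryos, with a highest value of 11.9 TPM, and ranged from 40.3 through 71.7 to 119 TPM in morulae. Again no morula overlapped a 4-cell embryo, and the change was 5.48 (SE 0.27, limma adjusted p = 3.1e-26). Among the Stra8 cauda controls the morulae ranged from 13.1 through 69.5 to 191 TPM. The 13 4-cell embryos outside the outlying series ranged from 0 through 0.24 to 7.07 TPM, below every morula, whereas the 5 control libraries of that series ranged from 16.4 to 107 TPM, within the range of the morulae. The change was 3.50 (SE 0.55, limma adjusted p = 2.5e-06) with those libraries and 4.76 (SE 0.35, limma adjusted p = 2.4e-14) without them. No Stra8 cauda series holds both stages, so stage and series cannot be told apart there.

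Slc2a3, a transporter with high affinity for glucose, was present at the 4-cell stage and rose in each set. In control embryos of testis sperm it went from 3.01 through 17.8 to 47.5 TPM at the 4-cell stage to 13.2 through 126 to 300 TPM in morulae. Of the 27 morulae, 21 were above every 4-cell embryo and the lowest was within their range. The log2 change was 2.77 (SE 0.32, limma adjusted p = 1.3e-10). Defb41 control medians were 7.21 and 134 TPM, 25 of 26 morulae were above every 4-cell embryo, and the change was 4.41 (SE 0.35, limma adjusted p = 4.4e-17). Without the outlying series the Stra8 cauda control medians were 14.3 and 339 TPM, and the change of 4.39 (SE 0.23, limma adjusted p = 2.1e-18) was 3.03 with all libraries (SE 0.51, limma adjusted p = 8.9e-06).

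As a share, Slc2a1 made up a median of 6.79% of the summed TPM of both in control 4-cell embryos of testis sperm and 34% in the morulae. In the Defb41 controls its median share was 0% at the 4-cell stage and 36.7% in morulae. Stra8 cauda control morulae had a median share of 15.8%, against 12.5% in 4-cell embryos with all libraries and 0.71% without the outlying series. Slc2a1 exceeded Slc2a3 in 7 of 27, 0 of 20 and 6 of 26 control morulae of testis, Stra8 cauda and Defb41 sperm.

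Hk1, the hexokinase of most tissues, and Hk2, an inducible hexokinase of muscle, fat and many tumours, are followed in turn. Hk2 ranged from 0 through 0.515 to 6.31 TPM in control 4-cell embryos of testis sperm and from 0.67 through 9.57 to 15.1 TPM in morulae. It was above every 4-cell embryo in 23 of 27 morulae, and rose by 2.22 (SE 0.26, limma adjusted p = 1.4e-10). Its median in Defb41 controls went from 0.02 to 10.1 TPM, with a rise of 2.95 (SE 0.19, limma adjusted p = 1.1e-20). Hk2 rose in Stra8 cauda controls by 3.95 without the outlying series (SE 0.23, limma adjusted p = 2.1e-17), from a median of 0.28 to 24 TPM, and by 2.53 with it (SE 0.53, limma adjusted p = 0.00019).

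Hk1 was the more abundant hexokinase by median in control embryos at both stages, and its own change lay between -0.20 and 1.52 over the sets, a difference that was not tested. The 5 control libraries of the outlying series went the other way, with medians of 6.53 TPM for Hk1 and 60.96 TPM for Hk2. Hk1 medians in testis sperm controls were 35.5 TPM at the 4-cell stage and 29.7 TPM in morulae, with overlapping ranges and a log2 change of -0.20 (SE 0.28, limma adjusted p = 0.56). Hk1 in Defb41 controls went from a median of 9.45 to 29.7 TPM and rose by 1.52 (SE 0.34, limma adjusted p = 7.5e-05). Among Stra8 cauda controls Hk1 rose by 1.23 with all libraries (SE 0.30, limma adjusted p = 0.0011) and by 0.51 without the outlying series (SE 0.19, limma adjusted p = 0.020), in which the 5 control libraries held 4.63 to 8.19 TPM. Hk2 thus went from a median of 1.58% to 23% of the summed hexokinase TPM in testis sperm controls and from 0.17% to 28% in Defb41 controls.

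Pfkl, which commits fructose phosphate to glycolysis, had small changes in the sets of the Stra8-iCre line. Its medians were 11.8 TPM at the 4-cell stage and 15.1 TPM in morulae of testis sperm controls, with overlapping ranges and a log2 change of 0.16 (SE 0.27, limma adjusted p = 0.61). Stra8 cauda controls gave a change of 0.24 with all libraries and 0.49 without the outlying series (limma adjusted p = 0.54 and 0.19). Only in Defb41 controls did it pass the test, with medians of 7.02 and 13.3 TPM and a rise of 1.14 (SE 0.30, limma adjusted p = 0.00073).

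Genes detected at 1 TPM or more also differed between the stages of the Defb41 controls, with medians of 8362 in 4-cell embryos and 9903 in morulae. With the number of genes detected as a covariate the Defb41 stage changes of Hk1, Pfkl and Pgk1 were -0.43, -0.10 and -0.35 and none passed the test (limma adjusted p = 0.38, 0.86 and 0.48). The other 6 called genes of that comparison were called with that covariate in the same direction.

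Aldoa, which splits fructose bisphosphate, was the most abundant of the 10 in all 14 groups by its median. It ranged from 131 through 214 to 326 TPM in control 4-cell embryos of testis sperm and from 352 through 739 to 1224 TPM in morulae. The stages did not overlap, and Aldoa rose by 1.78 (SE 0.13, limma adjusted p = 6.0e-17). The ranges in Defb41 controls were 38.6 to 330 TPM and 439 to 996 TPM, again without overlap, with a rise of 2.37 (SE 0.15, limma adjusted p = 1.8e-21).

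Aldoa in Stra8 cauda controls was called only without the outlying series. The 5 control libraries of that series held 1760 to 2272 TPM, above every control morula (435 to 875 TPM), while the other 13 held 95.1 to 337 TPM, below every morula. Aldoa changed by 0.75 with all libraries (SE 0.33, limma adjusted p = 0.062) and rose by 1.63 without them (SE 0.14, limma adjusted p = 2.3e-12). Pgk1, the first ATP-yielding step, likewise passed only without them, with 0.21 (SE 0.25, limma adjusted p = 0.52) and 0.68 (SE 0.19, limma adjusted p = 0.0023).

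Pgk1 had smaller changes than Aldoa in the other sets. Its medians in testis sperm controls were 32.6 and 56.1 TPM, the ranges overlapped, and it rose by 0.61 (SE 0.19, limma adjusted p = 0.0048). In the Defb41 controls it rose by 0.95 (SE 0.29, limma adjusted p = 0.0034), from a median of 30.8 to 48.4 TPM, and 1 of 30 4-cell embryos listed it at 0.

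Pkm, the pyruvate kinase gene of most tissues, rose in each set. In testis sperm controls it ranged from 0.48 through 33 to 113 TPM at the 4-cell stage and from 31.9 through 228 to 471 TPM in morulae. Of the 27 morulae 21 were above every 4-cell embryo, and the rise was 2.88 (SE 0.35, limma adjusted p = 5.4e-10). It was 2.97 in the Defb41 controls (SE 0.28, limma adjusted p = 2.3e-14), and in the Stra8 cauda controls 1.71 with all libraries and 2.58 without the outlying series (limma adjusted p = 0.00027 and 3.2e-12). The splice forms of Pkm, which differ in regulation, are not resolved in a table per gene.

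**Figure D2:**
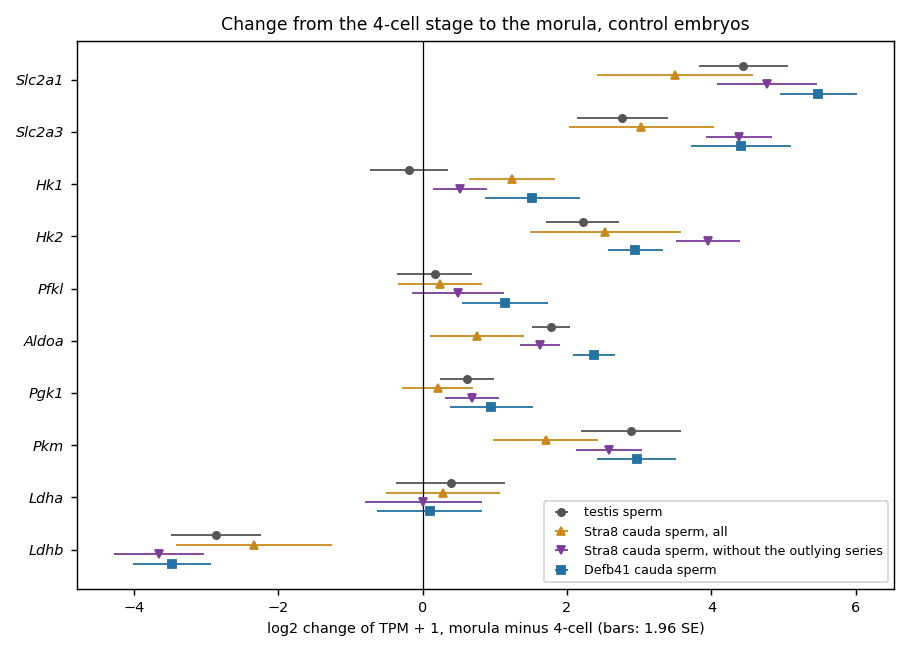
Log2 change of TPM + 1 from the 4-cell stage to the morula in control embryos, with bars of the 95% interval, for testis sperm, Stra8 cauda sperm with all libraries and without the outlying series, and Defb41 cauda sperm. Slc2a1 has the largest rise in each set (4.44, 3.50, 4.76 and 5.48), Ldha lies at 0.38 or below, and Ldhb lies between -2.34 and -3.66.

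Of the lactate dehydrogenase genes, Ldhb fell in control embryos of each set and Ldha passed no test in them. LDHA is known as the subunit of muscle-type isozymes and LDHB as that of heart-type isozymes, the form stored in the mouse egg. Ldhb ranged from 17.5 through 45.3 to 142 TPM in control 4-cell embryos of testis sperm and from 0 through 5.16 to 26.2 TPM in morulae. Of the 27 morulae 22 were below every 4-cell embryo. Ldhb fell by 2.87 on the log2 scale (SE 0.32, limma adjusted p = 3.0e-11), an 8.77-fold lower median.

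In the Defb41 controls Ldhb ranged from 15.9 through 81.3 to 344 TPM and then from 0.99 through 7.09 to 20.3 TPM, and fell by 3.48 (SE 0.28, limma adjusted p = 3.8e-17). Among Stra8 cauda controls Ldhb fell by 2.34 with all libraries (SE 0.55, limma adjusted p = 0.00067) and by 3.66 without the outlying series (SE 0.32, limma adjusted p = 1.7e-12). In that series it held 0 to 7.64 TPM, against 39.9 to 245 TPM in the other 13 control 4-cell embryos. The summed maternal oocyte markers were lower in morulae as well, with medians of 231 and 27.8 TPM in testis sperm controls and 331 and 28.4 TPM in Defb41 controls, and their part in the Ldhb result was not tested.

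Ldha did not pass the test in control embryos of any set. Its medians were 55 and 63.3 TPM in testis sperm controls (log2 change 0.38, SE 0.39, limma adjusted p = 0.40) and 59.95 and 59.9 TPM in Defb41 controls (0.09, SE 0.37, limma adjusted p = 0.83). The interval of the Defb41 change, from -0.63 to 0.82, leaves room for a change in either direction. Single embryos spread widely, from 0.3 to 238 TPM in the 4-cell testis sperm controls.

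By median, Ldhb made up 45% of the summed TPM of Ldha and Ldhb in control 4-cell embryos of testis sperm and 11.9% in morulae, and 56% and 8.84% in Defb41 controls. It exceeded Ldha in 16 of 30 Defb41 control 4-cell embryos and in 2 of 26 morulae. Among the 10 genes ordered by median TPM, Ldhb stood at place 2 or 3 in every 4-cell group and at place 9 or 10 in every morula group. The testis form Ldhc was at medians of 11 and 14.9 TPM in the 4-cell controls of testis sperm and Defb41 and at 0 in morulae. It was also in the list of sperm markers, and its source was not tested.

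**Figure D3:**
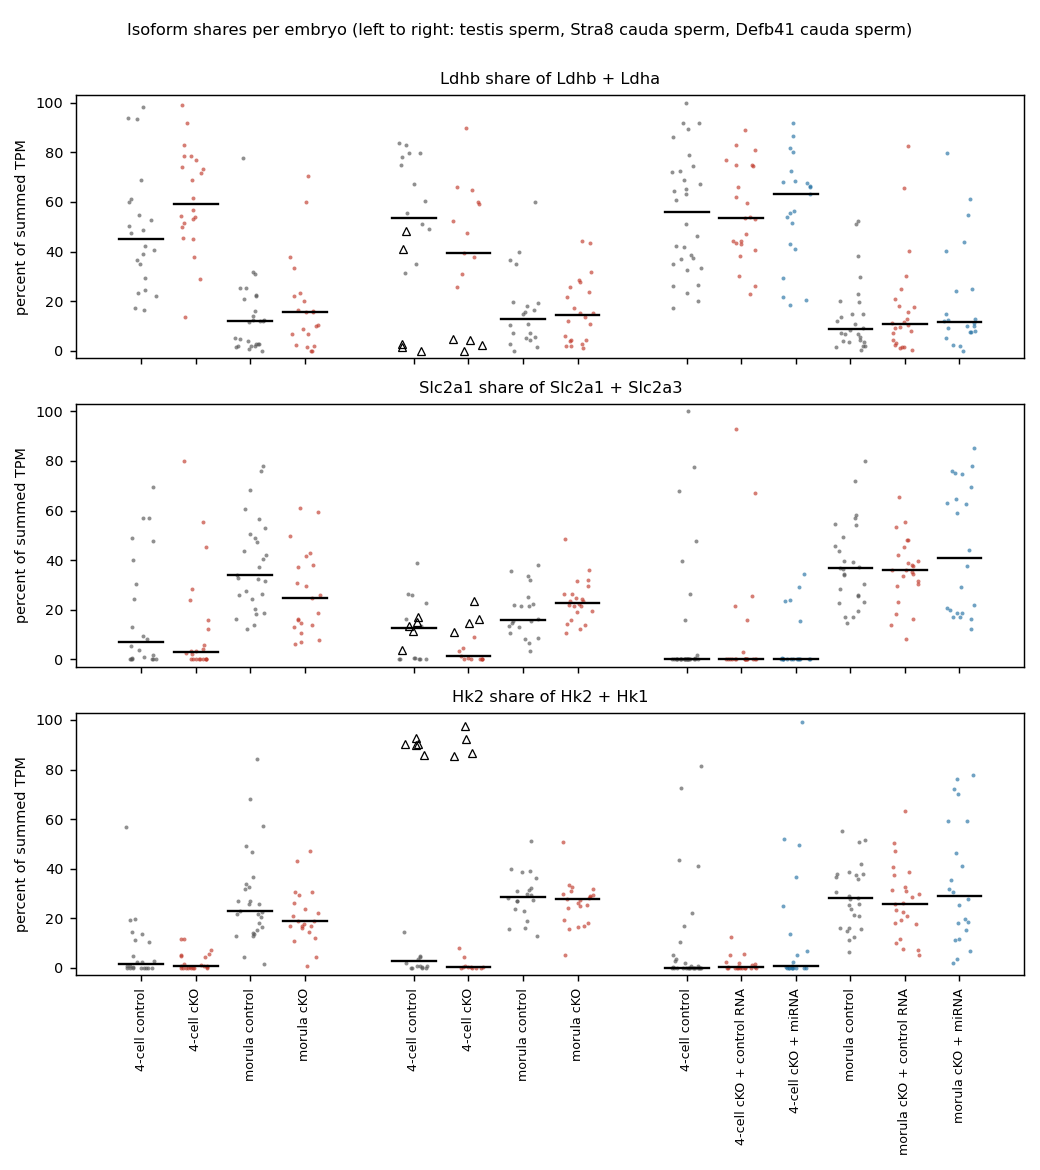
Share of Ldhb in Ldha and Ldhb, of Slc2a1 in both transporters and of Hk2 in both hexokinases, in percent of summed TPM, per embryo (points) with the group's median (bars). Open triangles are the libraries of the outlying series. In control embryos of testis sperm the median Ldhb share went from 45% to 11.9%, that of Slc2a1 from 6.79% to 34% and that of Hk2 from 1.58% to 23%.

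Embryos of cKO fathers showed the stage changes as well. In the testis sperm set 6 genes were higher and 1 lower, where 55.7% of genes were called (28.8% higher and 26.9% lower). In the Defb41 embryos injected with control RNA 8 were called, where 64.1% of genes were, and Pfkl changed by 0.21 (limma adjusted p = 0.61). In the Stra8 cauda cKO embryos with all libraries, where 42.2% of genes were called, Ldhb changed by -1.11 (limma adjusted p = 0.086) and Ldha rose by 0.66 (limma adjusted p = 0.025). Without the outlying series Ldhb fell by 2.33 (limma adjusted p = 5.7e-07) and Ldha changed by 0.59 (limma adjusted p = 0.051), where 61.5% of genes were called (34.1% higher and 27.3% lower).

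Slc2a1 and Aldoa were the 2 genes of the 10 whose stages did not overlap in testis sperm controls, where this held for 1.24% of genes tested, and in Defb41 controls, where it held for 2.97%. In Stra8 cauda controls the stages of every one of the 10 overlapped with all libraries (0.531% of genes did not). Without the outlying series Slc2a1, Slc2a3, Hk2, Aldoa and Ldhb did not overlap, where 7.11% of genes did not. In testis sperm cKO embryos Slc2a1 overlapped (lowest morula 5.13 TPM, highest 4-cell embryo 21.1 TPM) and only Aldoa did not (0.863% of genes). In Defb41 embryos with control RNA Slc2a1 overlapped too (5.01 and 7.95 TPM), and Hk2 and Aldoa did not (1.58%). With miRNA Slc2a1 and Aldoa did not overlap (0.923%). In Stra8 cauda cKO embryos all 10 overlapped, and without the outlying series Slc2a1, Slc2a3, Hk2 and Ldhb did not (5.79%).

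**Figure D4:**
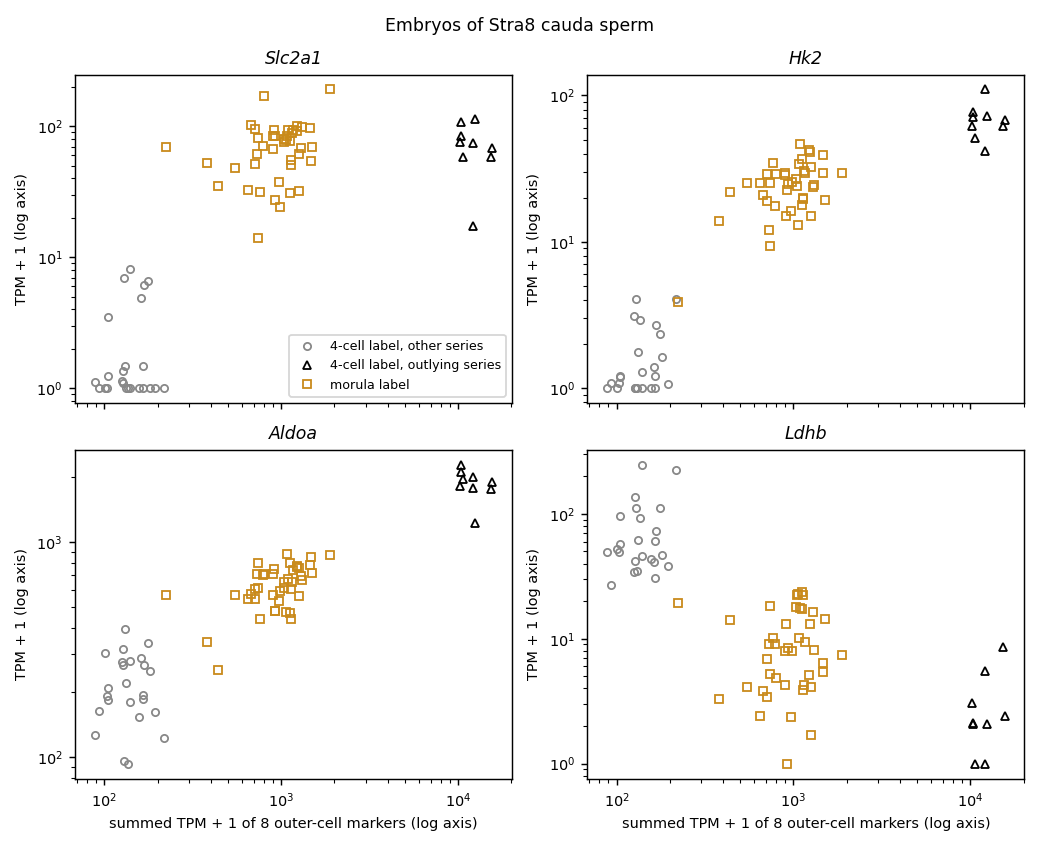
TPM + 1 of Slc2a1, Hk2, Aldoa and Ldhb against the summed TPM + 1 of 8 outer-cell markers, both on log axes, in the embryos of Stra8 cauda sperm. The 9 libraries of the outlying series (triangles) lie at marker sums of 10266 to 15621, beyond the morulae (squares, 221 to 1885), with Aldoa above every morula and Ldhb at 7.64 TPM or less.

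A list of 77 other genes of glucose transport, glycolysis, lactate and pyruvate handling, the pentose phosphate pathway and their regulators was followed beside the 10, and 76 of them were in the tables. In testis sperm controls 57 were tested, of which 25 were higher and 14 lower in morulae, with a median log2 change of 0.28. In Stra8 cauda controls 27 of 56 were higher and 9 lower (median 0.64), and 32 were higher and 12 lower without the outlying series (median 0.76), and in Defb41 controls 38 of 57 were higher and 11 lower (median 0.92). Of all genes, 29.7% were called higher and 31.2% lower in testis sperm controls, and 49.7% and 20.9% in Defb41 controls. In Stra8 cauda controls the shares were 27.2% and 17.8% with all libraries and 32% and 30.8% without the outlying series. The all-gene medians were -0.02 in testis sperm, 0.11 in Stra8 cauda (0.03 without that series) and 0.46 in Defb41 controls.

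Of the 15 other glycolytic enzymes tested in Defb41 controls 11 rose and 1 fell, where 49.7% of all genes were called higher and 20.9% lower. In testis sperm controls 9 of 15 rose and 2 fell, where 29.7% were called higher and 31.2% lower. In Stra8 cauda controls with all libraries 9 of 14 rose and 1 fell, where 27.2% were called higher and 17.8% lower. Gapdh, the enzyme before Pgk1, had medians of 21.6 and 168 TPM in testis sperm controls and rose by 2.74 (limma adjusted p = 2.3e-09), by 1.92 in Stra8 cauda controls with all libraries and 3.45 without the outlying series (limma adjusted p = 0.0086 and 1.2e-11) and by 3.40 in Defb41 controls (limma adjusted p = 6.7e-15). Tpi1, the triose phosphate isomerase, rose by 2.99 in Defb41 and 1.70 in testis sperm controls (limma adjusted p = 1.1e-09 and 1.0e-05). In Stra8 cauda controls Tpi1 changed by 0.97 with all libraries (limma adjusted p = 0.11) and rose by 2.15 without the outlying series (limma adjusted p = 2.9e-07). Pgam2, a phosphoglycerate mutase of muscle, rose by 1.83 in Stra8 cauda controls with all libraries and 2.34 without that series (limma adjusted p = 0.00090 and 2.9e-05). It did not pass the test in the other sets, with medians of 26.8 and 25.6 TPM in testis sperm controls (change 0.37, limma adjusted p = 0.31) and 24.1 and 31.6 TPM in Defb41 controls (change 0.53, limma adjusted p = 0.10). Eno1 and Eno1b are near copies of an enolase gene and Gapdh has many pseudogenes, so how reads were shared among them is uncertain.

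Among the regulators, Epas1, which encodes a hypoxia-inducible factor of the HIF family, rose in each set, by 3.03 in testis sperm, 2.53 in Stra8 cauda and 4.01 in Defb41 controls (limma adjusted p = 8.6e-12, 3.4e-06 and 3.3e-22). Pfkfb4, an enzyme that sets the level of the activator of phosphofructokinase, rose by 2.64, 2.36 and 2.99 (limma adjusted p = 2.1e-11, 1.1e-07 and 2.3e-21). Its relative Pfkfb3 fell by 2.94, 1.74 and 1.55 in the same order (limma adjusted p = 6.7e-11, 0.0095 and 6.8e-07). Fbp2, a fructose bisphosphatase of the opposite pathway, rose by 2.83, 2.2 and 2.74 (limma adjusted p = 8.7e-20, 5.4e-06 and 3.7e-23). Without the outlying series the Stra8 cauda changes of these 4 genes were 3.42, 2.69, -3.11 and 3.06, in the order named, and each passed the test.

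Txnip, which binds thioredoxin and restrains glucose uptake, fell by 2.30 in testis sperm and by 1.46 in Defb41 controls (limma adjusted p = 4.2e-07 and 0.00068), and in Stra8 cauda controls by 2.45 with all libraries and 2.83 without that series (limma adjusted p = 3.1e-07 and 4.8e-09). Gfpt1, the entry to the hexosamine pathway, fell by 2.39 in testis sperm and by 2.08 in Defb41 controls (limma adjusted p = 2.4e-15 and 2.1e-12), and in Stra8 cauda controls by 1.36 with all libraries and 2.47 without the outlying series (limma adjusted p = 0.0077 and 7.3e-15). In Defb41 controls Pgls, of the pentose phosphate pathway, rose by 3.24, and the transporter Slc2a8 by 2.86 (limma adjusted p = 1.8e-13 and 1.0e-10), and both were also called higher in the other sets.

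The genes most like each of the 10 over the 14 group means of log2(TPM + 1), among 6058 candidates, were looked up as a description. Every point is a group of 1 of 2 stages, so stage alone can give a high correlation, and the means of the Stra8 cauda 4-cell groups hold the outlying series. Tet2 was the closest to Slc2a1 (Pearson r = 0.996), Epas1 to Slc2a3 (0.995), Actg1 to Aldoa (0.995), Got1 to Pkm (0.992), Scd2 to Hk2 (0.988) and Trim61 to Ldhb (0.995). Ago2 was closest to Hk1 (0.975), Slc29a1 to Pgk1 (0.971), Bloc1s6 to Pfkl (0.918) and Nudc to Ldha (0.781). Over the same group means, Ldhb ran opposite to Aldoa (r = -0.973) and Slc2a1 (r = -0.971).

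The comparison of father genotypes asked whether loss of Dgcr8 in the father's germ cells or epididymis went with other levels of these genes in the embryo. None of the 10 genes passed the test in any of the 10 comparisons of genotype or injection. Of 95 tests of a gene in a comparison, 12 had an unadjusted p under 0.05, the lowest limma adjusted p was 0.14, and limma without trend and robust estimation called none either. The same comparisons called few genes of any kind in the fits without covariates, while some alternative fits, given in the last section, called more. For father genotype, 0.0184% of genes were called in 4-cell embryos and 0.197% in morulae of testis sperm (0.134% higher and 0.0627% lower). At both stages of Stra8 cauda sperm 0% were called. In Defb41 embryos injected with control RNA against controls, where genotype and injection cannot be told apart, 0% and 0.389% were called. At an unadjusted p under 0.05 there were 750, 1416, 281, 804, 856 and 1795 genes in these 6 comparisons. They were 6.9%, 12.7%, 2.46%, 7.09%, 8.65% and 16.2% of the genes tested. For miRNA against control RNA the shares were 7.9% in 4-cell embryos and 9.98% in morulae. Between miRNA and controls they were 3.66% and 16.6%. Without the outlying series the Stra8 cauda 4-cell comparison again called 0% of genes, and 766 had an unadjusted p under 0.05.

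Slc2a1 in morulae had the lowest unadjusted p of the 10 in the testis sperm set. The 21 cKO morulae of testis sperm ranged from 5.13 through 38.4 to 137 TPM, beside 21.1 through 54.9 to 130 TPM in controls. The difference was -0.58 (95% interval -1.01 to -0.14, p = 0.012, limma adjusted p = 0.26), and it was lower in 3 of 4 blocks of sample-sheet numbers.

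In the Defb41 set Slc2a1 ranged from 5.01 through 55.1 to 135 TPM in morulae with control RNA and from 18.6 through 53.4 to 155 TPM with miRNA, beside 40.3 through 71.7 to 119 TPM in controls. Both differences from control fell short of the threshold, at -0.50 (limma adjusted p = 0.18) and -0.54 (limma adjusted p = 0.14), and these comparisons share their control embryos. In Stra8 cauda morulae the medians were 69.5 TPM in controls and 71.8 TPM in cKO, and the difference of 0.05 had an interval from -0.39 to 0.49 (limma adjusted p = 0.97).

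Pkm had a lower median in cKO than in control morulae of each set. Its medians in controls and cKO were 228 and 125 TPM for testis sperm and 238 and 140 TPM for Stra8 cauda sperm, and 191 and 165 TPM for Defb41 controls and cKO with control RNA. The log2 differences were -0.51, -0.50 and -0.51 (limma adjusted p = 0.42, 0.64 and 0.26), the ranges overlapped in each set, and Pkm was lower in 2 of 4, 3 of 3 and 4 of 4 series or blocks. The summed outer-cell markers, whose 8 genes were all in the table, had lower medians in the cKO morulae too, at 790 TPM in cKO and 1250 TPM in controls of testis sperm, 980 and 1100.9 TPM for Stra8 cauda sperm, and 822 (control RNA), 908 (miRNA) and 1270 TPM (control) for Defb41. The ranges of those sums overlapped, and their part in the Slc2a1 and Pkm values was not tested.

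Slc2a3 in Stra8 cauda morulae had medians of 339 TPM in controls and 218 TPM in cKO, a difference of -0.49 (95% interval -0.84 to -0.14, p = 0.0091, limma adjusted p = 0.64), and was lower in 3 of 3 series. In testis sperm morulae it was 0.33 (limma adjusted p = 0.74) and lay on the other side of 0. In Defb41 morulae it was -0.32 with control RNA and -0.88 with miRNA (limma adjusted p = 0.68 and 0.23).

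At the 4-cell stage Slc2a1 and Hk2 fell below the filter on low values in Defb41 embryos with control RNA against controls, and in both injected groups against each other. Hk2 alone passed it between miRNA-injected embryos and controls, at 0.25 (limma adjusted p = 1.0). In 4-cell embryos of testis sperm Ldhb had medians of 45.3 TPM in controls and 71.1 TPM in cKO (difference 0.57, p = 0.051, limma adjusted p = 0.73). In the Stra8 cauda set without the outlying series the medians were 72.5 and 41.3 TPM and the difference was -0.95 (SE 0.28, limma adjusted p = 0.57), on the other side of 0. With all libraries it was -0.86 (limma adjusted p = 1.0), and Ldhb was lower in cKO in 3 of 3 series that hold both genotypes, against 1 of 4 blocks of the testis sperm set. Those series include the outlying one, where the Ldhb medians were only 2.05 TPM in controls and 1.095 TPM in cKO.

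Ldhb in morulae had medians of 5.16 TPM in controls and 12.97 TPM in cKO of testis sperm, 6.74 and 8.30 TPM for Stra8 cauda sperm, and 7.09 and 8.39 TPM for Defb41 controls and cKO with control RNA. The ranges overlapped in each set, and the differences were 0.52, 0.38 and 0.34 (limma adjusted p = 0.63, 0.82 and 0.62). Ldhb was higher in cKO in 4 of 4 blocks, 2 of 3 series and 3 of 4 series. The Defb41 comparison with miRNA, which shares its controls, gave 0.36 (limma adjusted p = 0.60), higher in 3 of 4 series. The Ldhb median with miRNA was 6.655 TPM, below that of controls, and the highest embryo with miRNA was at 81.7 TPM.

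Slc2a1 in the same 4-cell embryos without the outlying series was at 1 TPM or more in 6 of 13 controls and 0 of 11 cKO. The difference of -1.03 (SE 0.39) had a limma adjusted p of 0.65, and with all libraries it was -0.65 (limma adjusted p = 1.0), lower in 2 of 3 series that hold both genotypes. Those series include the outlying one. The 5 other control and 4 other cKO libraries of the set held Slc2a1 at 16.4 TPM or more.

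In morulae the cKO minus control differences of the remaining genes did not pass the test either. Hk1 differed by 0.34 in testis sperm (95% interval -0.14 to 0.83), by -0.01 in Stra8 cauda (-0.31 to 0.30) and by 0.16 in Defb41 morulae with control RNA (-0.28 to 0.60). Hk2 differed by -0.10, -0.23 and -0.04 in the same order. Aldoa differed by -0.11 in testis sperm, -0.21 in Stra8 cauda and -0.16 in Defb41 morulae with control RNA, and the widest of the intervals reached from -0.40 to 0.17. Pgk1 lay at 0.00, -0.03 and -0.01 in the same order, with intervals that stayed within 0.42 of 0 on either side. Ldha was at -0.41, 0.36 and 0.28 and Pfkl at -0.07, -0.19 and -0.22. Of the other pathway genes, 48 to 57 were tested in each comparison of genotype or injection, and limma called none.

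**Figure D5:**
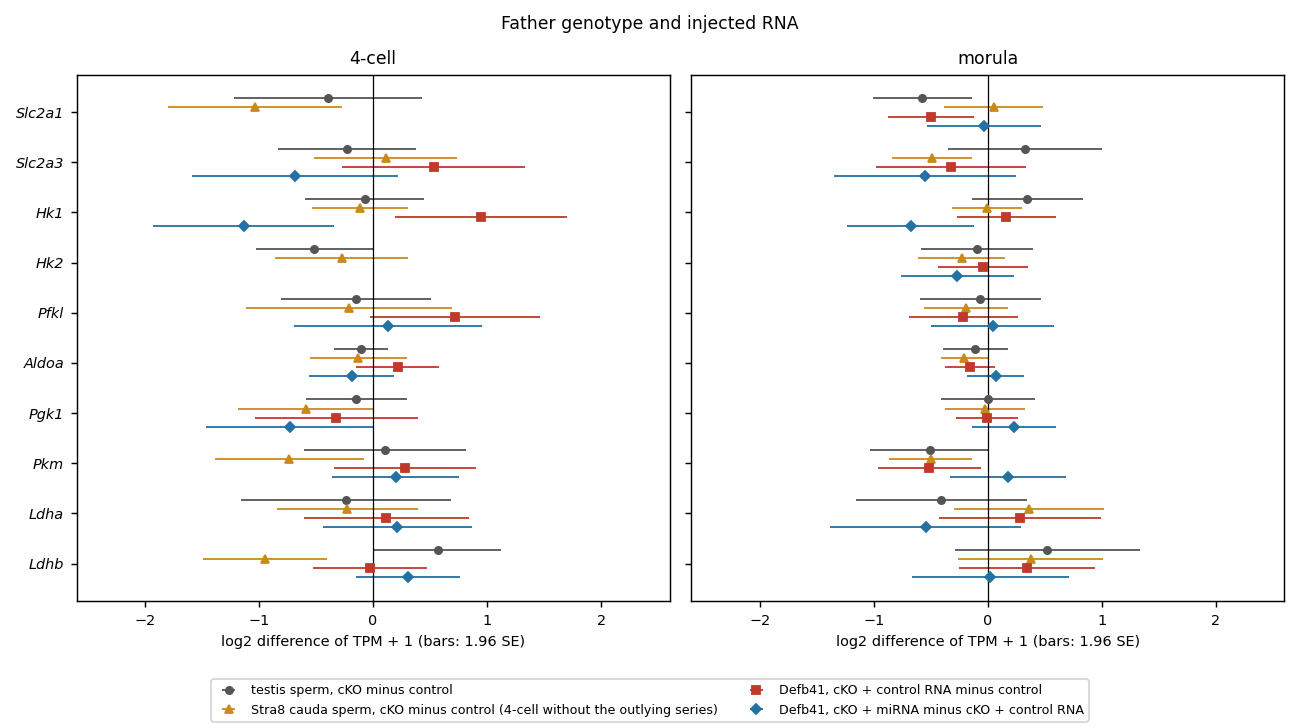
Log2 difference of TPM + 1 with bars of the 95% interval for the 10 genes in 4-cell embryos (left) and morulae (right), for cKO minus control in 3 sets and for injected miRNA minus control RNA. In the Defb41 set cKO stands for cKO with control RNA, so genotype and injection cannot be told apart there. The Stra8 cauda 4-cell values are those without the outlying series, and genes under the filter have no point. No point passes the limma test after adjustment, and in morulae Pkm lies near -0.5 in each cKO minus control comparison.

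The comparison of injections asked whether epididymosome miRNA changed these genes in embryos of Defb41 cKO fathers. Hk1 had lower medians with miRNA than with control RNA at both stages, and the difference did not pass the test. It ranged from 2.39 through 18.0 to 47.1 TPM in 4-cell embryos with control RNA and from 0 through 9.63 to 38.2 TPM with miRNA, beside 0 through 9.45 to 58.9 TPM in controls. The group with control RNA had the highest median and the ranges overlapped. The difference of miRNA from control RNA was -1.14 (95% interval -1.93 to -0.34, p = 0.0072, limma adjusted p = 0.61), where 0% of genes were called and 791 had an unadjusted p under 0.05.

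Against controls, Hk1 was at 0.95 with control RNA (limma adjusted p = 0.54) and at -0.19 with miRNA (limma adjusted p = 1.0) at the 4-cell stage. In morulae it had medians of 32.7 TPM with control RNA and 23.9 TPM with miRNA, a difference of -0.68 (95% interval -1.23 to -0.12, p = 0.021, limma adjusted p = 0.43), where 0.0814% of genes were called. It was lower with miRNA in 4 of 4 series of morulae and in 3 of 4 series of 4-cell embryos.

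Pgk1 at the 4-cell stage had medians of 30.8 TPM in controls, 24.4 TPM with control RNA and 15 TPM with miRNA. The difference of miRNA from controls was -1.05 (95% interval -1.84 to -0.26, p = 0.011, limma adjusted p = 1.0), where 0% of genes were called and 360 had an unadjusted p under 0.05, and that of miRNA from control RNA was -0.73 (limma adjusted p = 0.64). In morulae the order of the medians was the other way round, at 48.4, 51.9 and 63.2 TPM. In the comparison of miRNA-injected morulae with controls, where 0.0997% of genes were called, Pgk1 was at 0.22 (limma adjusted p = 0.51). Between the injected RNAs, Slc2a1 and Pkm in morulae differed by -0.03 (95% interval -0.53 to 0.46) and 0.17 (-0.34 to 0.68).

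Whether the effects differed between the stages was tested directly. None of the 10 genes passed in the 4 tests of a difference between stages, 3 of 40 values had an unadjusted p under 0.05, and the lowest limma adjusted p was 0.47. These were Pfkl (-0.94, p = 0.045), Pkm (-0.79, p = 0.049) and Pgk1 (0.96, p = 0.024, limma adjusted p = 1.0). Pfkl and Pkm were for Defb41 embryos with control RNA against controls, where genotype and injection cannot be told apart. Pgk1 was for the injection effect, miRNA against control RNA. Over all genes 0.0266% were called in the testis sperm set and 0% in the Stra8 cauda set (0.0614% without the outlying series). In the Defb41 set 0.00915% were called for control RNA against controls and 0% for the injection effect. At an unadjusted p under 0.05 the shares of genes were 7.95%, 3.74% (8.06% without the outlying series), 10.4% and 3.6%.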

How the data were processed

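Single 4-cell embryos and morulae were sequenced after Nextera XT library preparation, per the labels' protocols. The genome build was mm10 per the labels, and RSEM is named in the submitters' processing notes (its version is not given in the sources used here). The authors deposited TPM values per gene in 3 tables that were normalised separately, so tests ran only within a table. 1 column with no matching label was not used. The depth is unknown, so no counting interval was computed.

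TPM were tested as log2(TPM + 1) with limma 3.58.1 (trend and robust, R 4.3.3) over genes with at least 1 TPM in at least 25% of the embryos compared, with Benjamini-Hochberg adjustment over all genes tested and a threshold of 0.05. Only the groups compared entered a fit, without covariates. Intervals are 95% intervals from the normal approximation. Fold changes on this scale understate those of low genes. The code was tested on simulated data. Levels were summarised with Python 3.11.15 and pandas 2.3.3.

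Alternatives were a pseudocount of 0.1, no filter, median-ratio scaling, a replicate block, a series term, genes detected as a covariate, leaving out embryos with few genes detected, and limma without trend and robust estimation. Leaving out the outlying series and taking cKO embryos in place of controls were added after seeing the data. The 10 genes and all gene lists were chosen with earlier results of these data known. Genes named from the pathway list were the 6 with the largest changes among those called in a stage comparison of control embryos.

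Label numbers were taken to pair samples where every correlation of same-numbered embryos' deviations was over 0.1, which held for Stra8 cauda morulae (3 numbers, 0.109 to 0.360) and for Defb41 morulae with control RNA against controls (4 numbers, 0.101 to 0.180). The replicate block changed no call of the 10 genes in either. 3 listed genes (Tigar, Pgk1-rs7 and Duxf3) were not analysed here.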

Additional observations from a re-analysis of the deposited data

How the results depend on the processing

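The counts of called genes among the 10 stayed within 1.5 times under every alternative run in each comparison. In the Defb41 stage comparison, with genes detected as a covariate, Hk1 was at -0.43, Pfkl at -0.10 and Pgk1 at -0.35, on the other side of 0, and the cause was not tested. With the replicate block Slc2a1 changed by 4.38 (testis sperm) and 5.49 (Defb41) between stages, and 7 and 9 of the 10 genes were called. The block changed no other call of the 10 genes, and in most comparisons the numbers are shared without pairing the samples. For Defb41 embryos and Stra8 cauda morulae the block is the series number in the label. For testis sperm and Stra8 cauda 4-cell embryos it is the embryo's own number. For the Stra8 cauda stage and interaction comparisons no fit with the replicate block could be made. In Stra8 cauda 4-cell embryos the genotype difference of Slc2a1 ranged from -1.32 to 0.67 over the alternatives.

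Counts over all genes moved more. The replicate block took the testis sperm genotype calls from 2 to 0 (4-cell) and 22 to 0 (morulae), the Stra8 cauda 4-cell calls from 0 to 5, and in Defb41 morulae those of miRNA against control RNA from 9 to 38 and against controls from 11 to 162. A series term gave 274 calls in testis sperm morulae. Genes detected as a covariate gave 149 calls in place of 43 in Defb41 morulae with control RNA, 0 in place of 9 and 2 in place of 11. Median-ratio scaling gave 1, 14, 65 and 1 in place of 2, 22, 43 and 9. No filter gave 12, 27, 0 and 2 in place of 22, 43, 9 and 11, and a pseudocount of 0.1 gave 26 in place of 43. Limma without trend and robust estimation gave 1 in place of 2 and 0 in place of 9. The 3 interaction calls of the testis sperm set fell to 0 without the filter, with the block, with genes detected and without trend and robust estimation. The 1 Defb41 interaction call became 2 without the filter and 0 with genes detected. In testis sperm controls median-ratio scaling called 3983 genes higher and 2950 lower in morulae, in place of 3314 and 3480, with an all-gene median of 0.12 in place of -0.02. In Defb41 controls genes detected as a covariate gave 2666 higher and 3479 lower, in place of 5424 and 2278, with a median of -0.12 in place of 0.46. TPM keep no depth, so a low value such as that of Slc2a1 or Hk2 at the 4-cell stage has an unknown counting error.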
